A study of Homo sapiens with 6 samples.

Results

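Genes of glycolysis and of the response to low oxygen were followed in REH, a human cell line from acute lymphoblastic leukemia of B-cell precursors in which ETV6 is fused to RUNX1 and the other ETV6 allele is lost. The set holds 34 genes: glucose and lactate transporters, the glycolytic enzymes, kinases that regulate the pathway, the oxygen sensor and other genes known to respond to hypoxia. Members were found through the RefSeq accession of the catalogue probes on the array. A probe was matched for 33 of the 34 genes, against 19721 genes matched on the whole array, and no probe was matched for ALDOA. Of the 42 probes of these 33 genes, 37 probes of 30 genes lay far enough above the negative control spots to be retained. CA9, EGLN3 and both probes of SLC2A3 were not retained, nor was the second probe of HK2. Nothing is said below about the levels of ALDOA, CA9, EGLN3 and SLC2A3.

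The study asked which transcripts depend on the fusion. Expression was measured on 6 arrays, with 3 arrays of REH cells that carried a lentiviral short hairpin RNA (shRNA) against the ETV6 part of the fusion, called knockdown, and 3 arrays of REH cells with a non-targeting shRNA, called control. Per the study's methods the control hairpin was also designed against ETV6 but did not hit the fusion, both vectors carried GFP, and transduced cells were sorted for GFP. The labels number the replicates 1 to 3 in each group and the study calls them biological triplicates of this 1 line. Values are on a log2 scale after variance stabilization, so that a difference of 1 is a doubling where signal is strong and less than the true change near background. A probe is said to be called where limma gave an adjusted p under 0.05 (Benjamini-Hochberg over all retained probes).

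Glycolysis turns glucose into pyruvate in the cytosol. Its upper part, from hexokinase to triosephosphate isomerase, spends ATP to make triose phosphates, and its lower part, from glyceraldehyde-3-phosphate dehydrogenase to pyruvate kinase, regains ATP. Lactate dehydrogenase, which recycles NADH at the end, is counted with the lower part here. When oxygen is scarce, prolyl hydroxylases such as EGLN1 no longer mark HIF1A for destruction, and the stabilized factor binds a short DNA core, ACGTG or GCGTG, near many of these genes. Leukemic blasts, like many proliferating cells, run glycolysis at a high rate.

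Upstream DNA is shown for 5 of the 7 genes with the largest differences, because this core is where the factor named in the background would bind. They are the 4 that hold a core, and SLC16A3 as an example of the 3 that hold none. Each sequence is the 250 bases before the annotated start of the gene, from RefSeq on GRCh38.p14, written 5′ to 3′ on the strand of the gene, with each ACGTG or GCGTG core of either strand in capitals (a core of the opposite strand reads CACGT or CACGC here, and CACGTG holds a core on both strands). ADM lies on the plus strand at chr11:10304823-10305072, EGLN1 on the minus strand at chr1:231422288-231422537, ENO1 on the minus strand at chr1:8878687-8878936, LDHA on the plus strand at chr11:18394313-18394562 and SLC16A3 on the plus strand at chr17:82228185-82228434.
ADM: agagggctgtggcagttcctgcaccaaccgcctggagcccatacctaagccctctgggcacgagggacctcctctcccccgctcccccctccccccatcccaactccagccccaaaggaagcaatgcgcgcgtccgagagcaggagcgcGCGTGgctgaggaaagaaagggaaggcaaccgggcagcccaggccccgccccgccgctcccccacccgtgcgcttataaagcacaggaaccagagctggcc
EGLN1: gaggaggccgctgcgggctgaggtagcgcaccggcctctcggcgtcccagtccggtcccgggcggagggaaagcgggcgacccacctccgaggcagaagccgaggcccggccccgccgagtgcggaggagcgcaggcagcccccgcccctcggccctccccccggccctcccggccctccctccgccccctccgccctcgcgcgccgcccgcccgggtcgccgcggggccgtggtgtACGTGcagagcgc
ENO1: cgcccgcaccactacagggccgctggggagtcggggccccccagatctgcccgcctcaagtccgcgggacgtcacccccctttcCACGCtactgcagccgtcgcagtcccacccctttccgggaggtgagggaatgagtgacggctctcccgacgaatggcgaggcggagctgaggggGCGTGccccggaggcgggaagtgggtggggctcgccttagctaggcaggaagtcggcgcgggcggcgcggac
LDHA: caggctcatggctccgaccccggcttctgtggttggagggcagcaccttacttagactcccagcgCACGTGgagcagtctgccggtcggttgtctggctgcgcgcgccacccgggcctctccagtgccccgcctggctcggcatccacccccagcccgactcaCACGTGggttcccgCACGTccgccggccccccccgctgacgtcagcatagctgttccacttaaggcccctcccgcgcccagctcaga
SLC16A3: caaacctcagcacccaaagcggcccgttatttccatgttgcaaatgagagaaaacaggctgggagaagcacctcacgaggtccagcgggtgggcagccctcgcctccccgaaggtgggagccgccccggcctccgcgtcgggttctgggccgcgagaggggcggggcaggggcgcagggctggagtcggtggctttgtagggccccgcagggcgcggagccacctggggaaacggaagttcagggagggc

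The ADM sequence held 1 core, 101 bases before the start, and the EGLN1 sequence held 1, 13 bases before it. In ENO1 the cores lay 166 and 72 bases before the start, while LDHA held 5 cores, 4 of them in a pair of CACGTG palindromes. The SLC16A3 sequence held no core, and neither did the same stretches of PFKM and PKM. Among the members, 31 had an entry in the promoter table, and SLC2A3, BNIP3L and NDRG1 did not. At least 1 core was present in 20 of these 31 (64.5%), against 11763 of all 27305 promoters of the table (43.1%). By role, cores were found for 6 of 6 other hypoxia-response genes, 5 of 8 enzymes of the lower part and 5 of 9 of the upper part. They were found for 2 of 3 oxygen sensing genes, 2 of 3 regulatory kinases and 0 of 2 transporters. A match of 5 letters is a description of the window and not a binding site.

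All 6 arrays lay on 1 slide and were scanned together. Control 1 and 2 lay in row 1 of the slide, and control 3 and all knockdown arrays in row 2. A difference between knockdown and control therefore cannot be told apart from a difference between rows, except through control 3. Median raw intensity was 66 to 75, against 42.25 to 48 for the negative controls, and 45.75% to 50.95% of the probes were well above background, lowest in control 3. The retained ETV6 probe read 7.919, 8.052 and 8.372 in control 1, 2 and 3, and 7.496, 7.456 and 7.29 in knockdown 1, 2 and 3. Every knockdown array was below every control array, and the difference was -0.70 ± 0.14 (SE, adjusted p = 0.0513 by limma), just outside the call. The second ETV6 probe was well above background on 0 arrays. The 5 retained probes of RUNX1, the other partner of the fusion, differed by -0.26 to 0.03, with adjusted p from 0.510 to 0.944 by limma and 0 called. Markers of B-cell precursors were well above background on all arrays for 9 of 10 genes, with a mean of 12.8 to 13.2 in control and 13.0 to 13.3 in knockdown. Of 8 T and NK cell markers, 3 were well above background on all arrays and 3 (CD3E, CD3G and GNLY) on none, with a mean of 5.98 to 6.03 in control and 6.09 to 6.30 in knockdown. Of 7 myeloid and erythroid markers 6 were well above background on all arrays and HBB on none, with a mean of 7.93 to 8.02 in control and 7.64 to 7.69 in knockdown. In that last list MPO was called lower in knockdown, by -2.02 ± 0.16 (adjusted p = 0.00107 by limma), and with the replicate number as a block the B-cell precursor genes CD79B and IGLL1 were called higher, by 0.55 ± 0.10 and 0.53 ± 0.10. That fit called 3.78% of all probes, 1.36% higher and 2.43% lower. Whether other cells took part in any difference given below was not tested, and fewer cells of a type cannot be told apart from less RNA per cell.

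The level against which arrays are compared changed some directions. When the arrays were leveled on 6 spike-in RNA probes instead of on all probes, the median of all probes moved to 0.36 in knockdown against control, to -0.14 in replicate 1 against replicates 2 and 3 and to 0.59 in the interaction of both. Directions are therefore given relative to the rest of the array. Under that scaling ADM was still lower (-0.49, adjusted p = 0.190 by limma), PFKM stood at 0.01, EGLN1 at 0.02, SLC2A1 at 0.18 and PGK1 at 0.29, all in knockdown against control. SLC16A3 was called higher in that comparison under this scaling (0.79, adjusted p = 0.0407 by limma) and under no other setting tried for it.

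In knockdown against control, 1 gene of the set passed the test, ADM, at 0.553 times its control level. All 30 retained genes were well above background on all 6 arrays. Of the 30 genes, 18 were higher and 12 lower in knockdown, with a median difference of 0.05 on the log2 scale, against -0.0015 over all probes tested. This median was -0.01 without knockdown 3, 0.07 without control 2 and 0.09 without knockdown 1. No member was called higher, and 4 genes (ADM, PFKM, PFKP and EGLN1) had an unadjusted p under 0.05. Over all 27425 probes tested, 1.74% were called, 0.459% higher and 1.28% lower, and 12.5% had an unadjusted p under 0.05. The arrays of both groups did not overlap for 8 of 30 member genes, compared with 18.9% of all probes. Within pairs of equal replicate number, 15 of 30 genes differed in the same direction in 3 of 3 pairs, compared with 42.2% of all probes.

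**Figure D1:**
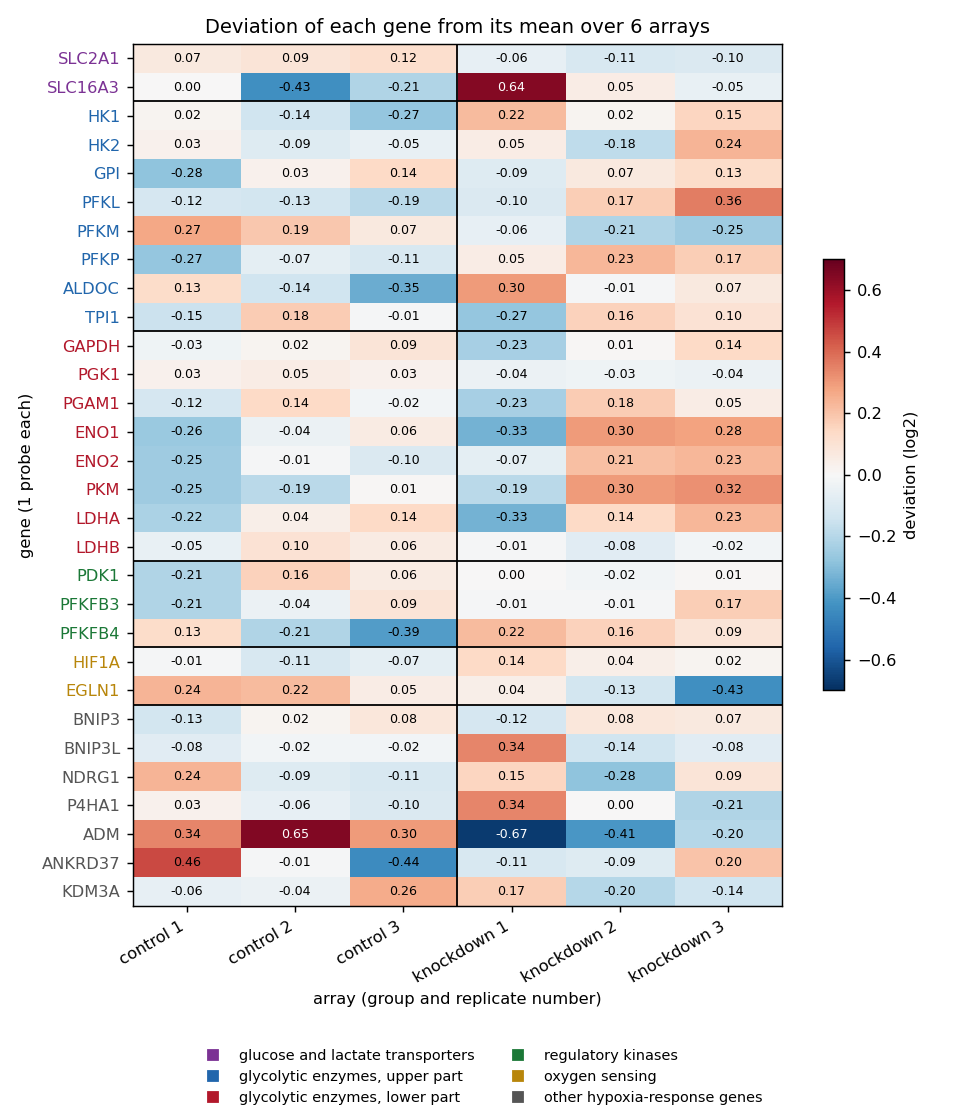
Each row is a gene (1 probe each, colored and grouped by role), each column an array, and each cell the deviation of the log2 level from the mean of that gene over the 6 arrays. ADM is the row with the clearest split between the 3 control and the 3 knockdown arrays, while ENO1, PKM and LDHA are lowest on replicate 1 of each group.

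ADM encodes adrenomedullin, a secreted vasodilator peptide and a classical HIF target. Its probe read 7.71, 8.02 and 7.67 in control 1, 2 and 3, and 6.70, 6.96 and 7.17 in knockdown 1, 2 and 3. All knockdown arrays lay below all control arrays, with the lowest value in knockdown 1 and the highest in control 2. The mean was 7.80 ± 0.19 in control and 6.94 ± 0.24 in knockdown (SD, n = 3 each), a difference of -0.85 ± 0.15 (SE), or 0.553 times the control level, with adjusted p = 0.0347 by limma. A two-sided exact permutation test of this gene alone gave p = 0.1, the smallest value that 3 arrays against 3 allow. The difference was -1.01, -1.06 and -0.50 in the pairs of replicate 1, 2 and 3. The call was fragile: the adjusted p by limma was 0.0770, 0.144 and 0.0814 without control 1, 2 or 3, and 0.0541, 0.130 and 0.0596 without knockdown 1, 2 or 3. Over 17 alternative settings the difference ran from -1.05 to -0.49. The adjusted p by limma ran from 0.0232 to 0.190, leaving out the setting with the slide row as a term. That setting set the knockdown arrays against control 3 alone and gave a difference of -0.72.

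The transporters and the enzymes of the upper part did not pass the test. SLC16A3, the lactate exporter MCT4, had the largest positive difference of the set when all 6 arrays were used. It read 6.59, 6.16 and 6.39 in control 1, 2 and 3, and 7.23, 6.65 and 6.55 in knockdown 1, 2 and 3. The groups overlapped, since control 1 lay above knockdown 3, and the difference was 0.43 ± 0.20 (adjusted p = 0.427 by limma). It was 0.22 without knockdown 1, below that of PKM at 0.46 and of ENO1 at 0.37 without that array. SLC2A1, the glucose transporter GLUT1, was tightly measured at 10.35 to 10.40 in control and 10.17 to 10.22 in knockdown. Its groups did not overlap, but the difference of -0.19 ± 0.09 was not called (adjusted p = 0.444).

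The 3 isoforms of phosphofructokinase, the enzyme that commits sugar to glycolysis, gave values in opposite directions, with PFKM lower and PFKP and PFKL higher in knockdown, although PFKM stood at 0.01 with spike-in scaling. The difference between isoforms was not tested. PFKM, the muscle isoform, read 14.30, 14.23 and 14.10 in control 1, 2 and 3, and 13.97, 13.83 and 13.79 in knockdown 1, 2 and 3. The lowest control array was above the highest knockdown array, with a difference of -0.35 ± 0.10 (adjusted p = 0.197 by limma). PFKP, the platelet isoform, was higher in knockdown by 0.30 ± 0.10 (adjusted p = 0.278), and its second probe gave 0.29 ± 0.11. PFKL, the liver isoform, was higher by 0.29 ± 0.13 (adjusted p = 0.405). The groups did not overlap for any of these 3 genes, yet none was called. The other upper-part enzymes ran from -0.01 (TPI1) to 0.26 (HK1, a hexokinase), all with overlapping groups. Taking both parts of the pathway, 11 of 16 enzymes were higher and 5 lower, 0 were called and 2 (PFKM and PFKP) had an unadjusted p under 0.05, a share equal to the 12.5% of all probes, with a median of 0.07 (all 16 were higher with spike-in scaling, with a median of 0.44 against 0.36 for all probes). The tally rested on single arrays: 8 of 16 were lower without control 1 (median 0.01) and without knockdown 3 (median 0.0011), 6 of 16 without control 3 (median 0.11) and 3 of 16 without knockdown 1 (median 0.14).

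The 8 enzymes of the lower part differed by -0.08 to 0.29 between groups. The largest difference was that of PKM, pyruvate kinase, which read 14.02, 14.09 and 14.28 in control 1, 2 and 3, and 14.09, 14.58 and 14.60 in knockdown 1, 2 and 3. Knockdown 1 lay among the control arrays, and the difference was 0.29 ± 0.16 (adjusted p = 0.513 by limma), or 0.46 without knockdown 1. PGK1, phosphoglycerate kinase, was nearly constant, from 15.24 to 15.26 in control and from 15.17 to 15.18 in knockdown. Its groups did not overlap, but the difference was only -0.08 ± 0.09 (adjusted p = 0.773). GAPDH differed by -0.05 ± 0.12 and LDHA by 0.02 ± 0.17, with the second LDHA probe at -0.03. Of the kinases that tune the pathway, PFKFB4 was 0.31 ± 0.14 higher, PFKFB3 0.11 ± 0.11 higher and PDK1, which turns off pyruvate dehydrogenase, differed by -0.01 ± 0.12, all 3 with overlapping groups.

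Among oxygen sensing and hypoxia-response genes, 4 of 9 were higher and 5 lower, with a median of -0.0039 (8 of 9 were higher with spike-in scaling). EGLN1, the prolyl hydroxylase PHD2, read 10.34, 10.33 and 10.16 in control 1, 2 and 3, and 10.15, 9.97 and 9.68 in knockdown 1, 2 and 3. The groups were separated only narrowly, by control 3 and knockdown 1, and the difference was -0.34 ± 0.14 (adjusted p = 0.354 by limma), or -0.22 without knockdown 3. HIF1A, its substrate, was 0.13 ± 0.09 higher with groups that did not overlap, but its second probe gave -0.08 ± 0.16. The 6 hypoxia-response genes other than ADM, among them the mitophagy receptor BNIP3 and the collagen hydroxylase P4HA1, lay between -0.11 (KDM3A, a histone demethylase) and 0.09 (P4HA1), and their groups overlapped. None of these 6 was called.

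The remaining genes of these roles were close between groups. BNIP3 ranged from 12.35 to 12.55 in control and from 12.36 to 12.55 in knockdown, and BNIP3L, a related mitophagy receptor, from 11.68 to 11.74 in control and from 11.62 to 12.10 in knockdown. NDRG1 ranged from 8.26 to 8.62 and from 8.10 to 8.52, KDM3A from 8.56 to 8.88 and from 8.42 to 8.79, and P4HA1 from 9.30 to 9.43 and from 9.20 to 9.74, in control and knockdown, respectively. ANKRD37 was the most variable of them in control, from 6.55 to 7.44, against 6.87 to 7.19 in knockdown. Of the regulatory kinases, PFKFB4 ranged from 8.33 to 8.85 in control and from 8.81 to 8.94 in knockdown, so that only control 1 reached the knockdown range.

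**Figure D2:**
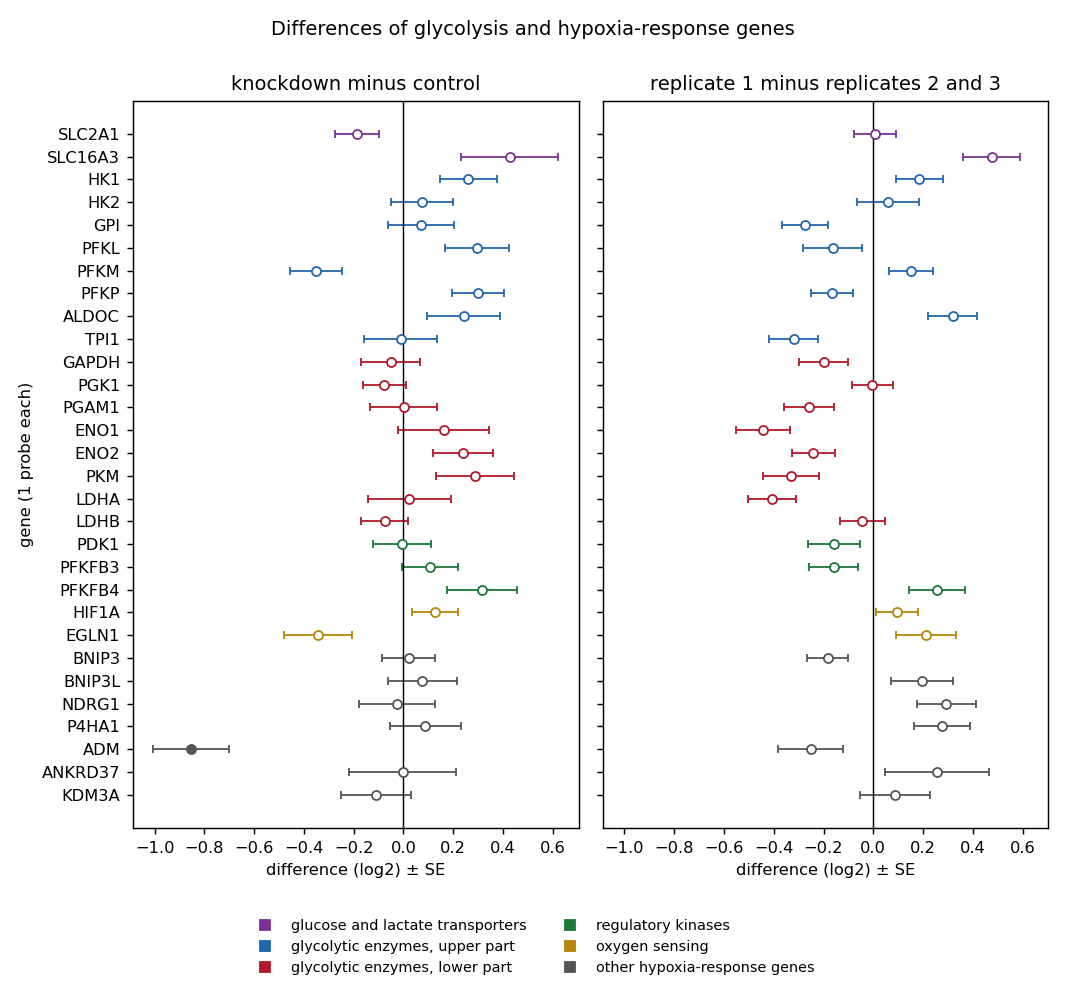
Points are log2 differences with their standard errors from limma for knockdown minus control (left) and replicate 1 minus replicates 2 and 3 (right), with filled points for called genes. ADM at -0.85 is the filled point on the left, and on the right the 8 enzymes of the lower part all lie at or below 0.

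Several glycolytic enzymes were lower in replicate 1 than in replicates 2 and 3, although no member was called. Replicate 1 of both groups was set against replicates 2 and 3 of both groups, in a model that kept the group. This model took the 6 arrays as independent, although control 1 and knockdown 1 deviated from their groups together (correlation 0.426). Taken as pairs, the arrays give 1 replicate against 2, so the p-values of this comparison do not measure how much replicates vary. Of 37 member probes 0 were called by limma, compared with 5.67% of all probes, and 3.65% of all probes were called higher. At an unadjusted p under 0.05, 11 of 30 genes passed, compared with 23.9% of all probes. The arrays of replicate 1 did not overlap with the others for 11 of 30 genes, 8 lower and 3 higher, against 28.7% of all probes in either direction and 13.6% lower. The 8 lower genes were the enzymes ENO1, LDHA, PKM, TPI1, GPI, PGAM1 and GAPDH and the hypoxia-response gene BNIP3. In PKM the separation was narrow, between knockdown 1 and control 2. The 3 higher genes were ALDOC, NDRG1 and P4HA1.

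All 8 enzymes of the lower part, with LDHA and LDHB counted among them, had negative differences in replicate 1, from -0.44 (ENO1) to -0.0031 (PGK1), with a median of -0.25, against 0.0059 over all probes, and 0 of 8 were called while 5 had an unadjusted p under 0.05. In 6 of 8, replicate 1 was the lowest array of both groups, which held for 20.5% of all probes. Averaged over the 8 genes, the deviation from the mean of each gene was -0.14 in control 1 and -0.18 in knockdown 1, against 0.01 and 0.03 in control 2 and 3 and 0.13 and 0.15 in knockdown 2 and 3. This count of 8 of 8 became 6 of 8 without control 1 and 7 of 8 without control 2, against replicate 3 alone and after quantile normalization, where PGK1 or LDHB turned to a difference of at most 0.04. The upper part was mixed, with 4 enzymes higher and 4 lower. ENO2 aside, the enzymes of the lower part were bright, with control means from 13.9 (PGAM1) to 16.8 (LDHB). Whether probes of like brightness were lower in replicate 1 as well was not tested.

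ENO1, enolase, read 14.20, 14.41 and 14.51 in control 1, 2 and 3, and 14.12, 14.75 and 14.73 in knockdown 1, 2 and 3. Replicate 1 was lowest in both groups, and the difference was -0.44 ± 0.11 (SE, adjusted p = 0.0584 by limma). LDHA, which makes lactate, read 14.62, 14.87 and 14.98 in control 1, 2 and 3, and 14.51, 14.97 and 15.06 in knockdown 1, 2 and 3. Here too both replicate 1 arrays lay under the other 4, with a difference of -0.41 ± 0.10 (adjusted p = 0.0536), and the second LDHA probe gave -0.36 ± 0.10. PKM, with the array values given above, differed by -0.33 ± 0.11 (adjusted p = 0.131). Without knockdown 1 the difference was -0.26 for ENO1 (adjusted p = 0.364 by limma) and -0.16 for PKM (adjusted p = 0.615), and without control 1 it was -0.50 for PKM. TPI1, triosephosphate isomerase, differed by -0.32 ± 0.10 (adjusted p = 0.105), GPI by -0.27 ± 0.09 and PGAM1 by -0.26 ± 0.10. LDHB, the other lactate dehydrogenase subunit, differed by only -0.04 ± 0.09.

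**Figure D3:**
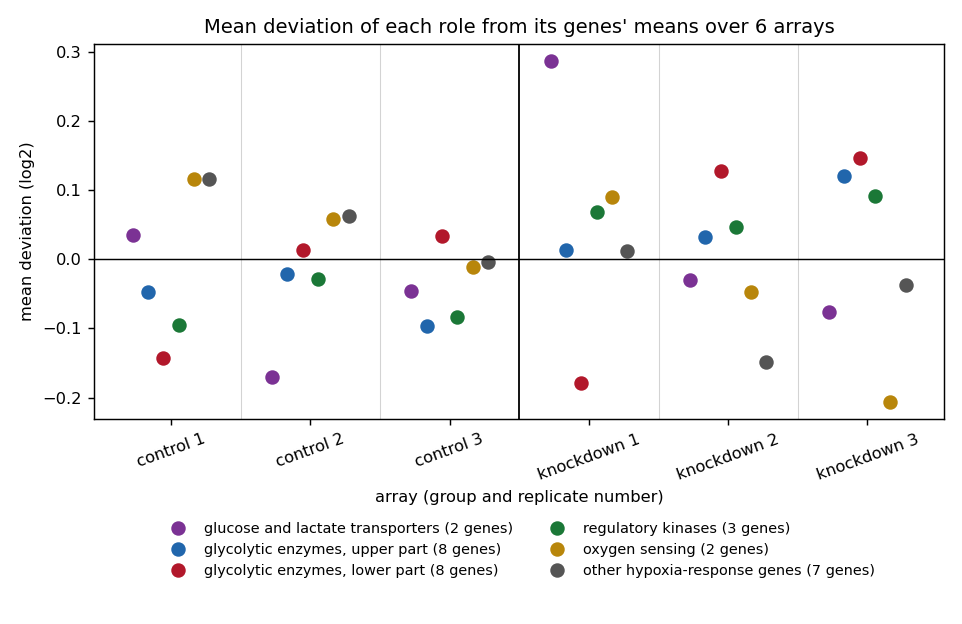
Points are the mean log2 deviation of the genes of each role from their means over the 6 arrays, per array. The 8 enzymes of the lower part sit at -0.14 and -0.18 on control 1 and knockdown 1 and at 0.01 to 0.15 on the other arrays.

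Several other members ran the other way. SLC16A3, with the array values given above, was 0.48 ± 0.11 higher in replicate 1 (adjusted p = 0.0567 by limma), although control 1 at 6.59 lay below knockdown 2 at 6.65, so that the arrays overlapped. Without control 3 it was called, with a difference of 0.55 and adjusted p = 0.0498. ALDOC, the brain aldolase, was 0.32 ± 0.10 higher (adjusted p = 0.104), NDRG1, a stress-responsive gene, 0.29 ± 0.12 and P4HA1 0.28 ± 0.11. Of the 9 oxygen sensing and hypoxia-response genes, 7 were higher and 2 (ADM and BNIP3) lower in replicate 1, with a median of 0.19 and 0 called (5 of 9 were higher with spike-in scaling, where the median of all probes was -0.14). The interaction term asked whether replicate 1 departed by unequal amounts in knockdown and control. It called 0 of 37 member probes and 0.416% of all probes, and 2 member genes (ANKRD37 and BNIP3L) had an unadjusted p under 0.05, compared with 8.31% of all probes. In ANKRD37, control 1 at 7.44 was the highest control array and knockdown 1 at 6.87 the lowest knockdown array (interaction -0.85 ± 0.30, adjusted p = 0.545 by limma). In BNIP3L, knockdown 1 at 12.10 stood above the other 5 arrays, which lay between 11.62 and 11.74 (interaction 0.51 ± 0.17, adjusted p = 0.533). With spike-in scaling 4 of 37 member probes were called in the interaction, all higher, compared with 8.38% of all probes called higher, so that the count is close to that of the whole array. They were both of BNIP3L (1.101, adjusted p = 0.0299, for the brighter), that of KDM3A and the second of HIF1A.

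**Figure D4:**
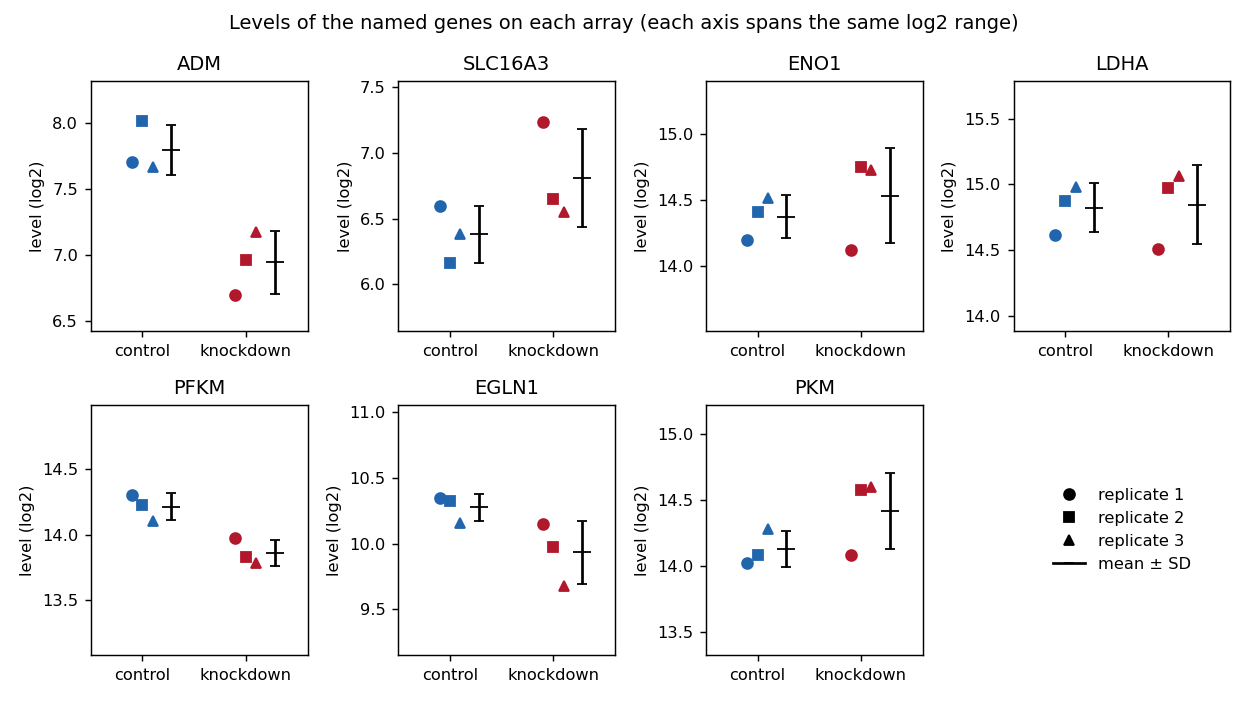
Each panel gives the log2 level of a gene on every array, by group and with the replicate number as the symbol, beside the mean ± SD (n = 3) and on axes of equal span. Both groups are apart for ADM, PFKM and EGLN1, while in ENO1 and LDHA the circles of replicate 1 lie lowest in both groups.

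Other genes of the same pathways gave a background for these values. Of 20 other HIF target genes, 13 were retained. In knockdown against control 1 of 13 was called, compared with 1.74% of all probes. It was P4HA2, a collagen prolyl hydroxylase, which rose by 0.75 ± 0.11 (adjusted p = 0.0177 by limma), with 8.76, 8.55 and 8.57 in control 1, 2 and 3 and 9.51, 9.24 and 9.38 in knockdown 1, 2 and 3. This is the direction opposite to that of ADM, and the list had a median of -0.11. With the replicate number as a block, 2 of 13 were called higher, compared with 1.36% of all probes in that fit. They were P4HA2 and DDIT4, an inhibitor of mTOR signaling (0.76 ± 0.10, adjusted p = 0.0145 by limma). In replicate 1, 4 of these 13 were called, all higher, or 3 without VEGFA, which was not measured above threshold on every array, compared with 3.65% of all probes. The 3 were DDIT4 (1.37 ± 0.10), BHLHE40 (1.31 ± 0.17) and KDM4B (0.65 ± 0.10). VEGFA, an angiogenic growth factor, read 7.665 in control 1 and 7.667 in knockdown 1, and 6.142 and 7.264 in knockdown 2 and 3. Control 2 and 3, at 5.588 and 5.679, lay below the retention thresholds of their arrays, so its difference is not given and its call is not relied on.

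Of the 6 retained regulators of HIF, EPAS1, which encodes HIF2A, was called lower in replicate 1, by -0.91 ± 0.12 (adjusted p = 0.00922 by limma), as were 2.02% of all probes. It read 8.322, 9.277 and 9.202 in control 1, 2 and 3, and 6.914, 7.639 and 7.998 in knockdown 1, 2 and 3. The knockdown arrays were all below the control arrays as well, by -1.41, -1.64 and -1.20 in the pairs of replicate 1, 2 and 3. Without a block that difference of -1.42 ± 0.33 missed the call (adjusted p = 0.0936 by limma). A block for replicate number brought the error to 0.11 and the adjusted p to 0.00273, in a fit that called 2.43% of all probes lower. Of 16 retained genes of glycogen, lactate and other glycolytic steps, 0 were called in knockdown and 2 in replicate 1, both higher (3.65% of all probes were): TXNIP, an inhibitor of glucose uptake (1.38 ± 0.26), and GYS1, glycogen synthase (0.45 ± 0.09). Neither of the latter calls was kept with the replicate block (adjusted p = 0.0569 and 0.0553 by limma), while GYS1 was then called lower in knockdown (-0.47 ± 0.09, adjusted p = 0.0419, with 2.43% of all probes called lower). None of the 7 genes of the pentose phosphate pathway and none of the 10 genes of pyruvate dehydrogenase and its kinases was called in either comparison, with or without the block.

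Genes of a stress program differed with replicate number on the same arrays. This list and the comparison of replicate 1 were chosen with earlier results of these data known, so the counts only describe these arrays. Of 10 target genes of ATF4, the factor induced by amino acid shortage, 9 were called higher in replicate 1, compared with 3.65% of all probes, with a median difference of 1.85 over the 10 and a range of -0.02 to 2.95. In knockdown against control 0 of 10 were called without a block (1.74% of all probes) and 1 with the replicate block (3.78%). That gene was TRIB3, a pseudokinase, which differed by 1.05, 1.09 and 1.15 in the 3 pairs (1.096 ± 0.086, adjusted p = 0.00274 by limma with the block, 0.706 without). ASNS, asparagine synthetase, read 14.67 in control 1 and 14.42 in knockdown 1 and 12.33 to 12.58 on the other 4 arrays. The part of these genes in the values of the glycolytic enzymes in replicate 1 was not tested.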

How the data were processed

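RNA was hybridised to 6 one-color Agilent arrays, and per the file headers the scans were read with Feature Extraction 10.7.1.1. Scanner intensity, as deposited, is not normalized between arrays. The authors also deposited normalized log2 values for 27869 probes (VSN, background subtraction and a filter on negative controls in the methods), used here as an alternative.

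The VSN model was rewritten (0.9 quantile of least squares kept) and fitted to median intensities, as the files used here hold no mean intensity. Spots with an outlier flag were dropped, repeat spots were averaged and 0 spots were saturated. Retained probes exceeded 1.1 times the 0.95 quantile of the normalized negative controls (308 spots) on 2 of 3 arrays of either group. This kept 27490 probes, of which 27425 had a value on all arrays. Accessions of 75.4% of the 34134 catalogue probes matched a RefSeq gene. Limma 3.58.1 in R 4.3.3 was used (lmFit, eBayes, two-sided, Benjamini-Hochberg) with no block. A gene was represented by its brightest retained probe. All arrays enter as samples, and their number limits the precision.

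Deviations from group means correlated at 0.426, 0.287 and 0.204 between arrays of equal replicate number (1, 2 and 3). These values go with a pairing of replicate 1, while a pairing of 2 with 2 and of 3 with 3 is not settled. The replicate block takes all equal numbers as pairs. Unequal numbers gave -0.331 to 0.187, with 0.170 and 0.187 between replicates 2 and 3, so that replicate 1 stands apart more clearly than 2 and 3 from each other. With the replicate as a block, 1038 probes in place of 477 were called in knockdown.

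Array values are given for called members and the 6 others with the largest differences in either comparison. Members, lists and the comparison of replicate 1 were chosen with earlier results of these data known. The normalization and the test were tested on simulated data. The simulated arrays had independent noise, without pairing or an effect of slide row, so the simulation cannot show how these affect the calls.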

Additional observations from a re-analysis of the deposited data

How the results depend on the processing

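For knockdown against control, 477 probes were called (126 higher, 351 lower). This became 1046 with spike-in scaling (896 higher, 150 lower), 224 with no filter on dim probes and 1038 with the replicate block (all 477 among them). It was 193 (without control 2) to 553 (without knockdown 1) when single arrays were left out, with at most 282 without any array other than knockdown 1. The slide row as a term left control 3 alone against the knockdown arrays, since control 1 and 2 lay in the other row, so its count is not given. The call of ADM, 1 member probe, became 0 with 75th percentile scaling, the deposited log2 values and no filter, and 0 without each array. With the slide row as a term, and thus against control 3 alone, the difference of ADM was -0.72. The call was kept in 6 of 17 alternatives, which include the slide row, and under spike-in scaling the 1 called member was SLC16A3 instead. For replicate 1 against replicates 2 and 3, 1554 probes were called (1001 higher, 553 lower). This became 761 with 75th percentile scaling (337 higher, 424 lower), 385 with spike-in scaling, 140 with no filter, 2628 with an intensity trend and robust prior, 943 with the replicate block, 897 with a threshold on raw intensity (chosen after seeing the data), 265 against replicate 2 alone, 370 against replicate 3 alone and 343 to 793 without single arrays. The slide row as a term amounted to leaving out control 3, here and in the interaction, and is not counted again. Normexp and quantile normalization called 1220 higher and 1104 lower. Called member probes went from 0 to 4 there (ENO1, both LDHA probes, SLC16A3), to 5 with the trend (TPI1 added) and to 1 (SLC16A3) with the deposited values. They were 0 to 1 without single arrays, with SLC16A3 called without control 3. The interaction called 114 probes, but 2 with 75th percentile scaling, 2392 with spike-in scaling, 74 with the deposited values, 370 with no filter, 174 with the trend, 234 with the slide row, 74 with probes of a gene averaged and 104 to 417 without single arrays. Its member probes went from 0 to 4 with spike-in scaling only. The causes were not tested. The replicate block changed no call of a member (calls it changed in other lists stand in the report), and it could not be fitted for the interaction, nor could leaving out control 1 or knockdown 1. No called member changed sign, while uncalled genes did in 56 (knockdown) and 23 (replicate 1) of the gene and setting combinations. The median SD between replicates was 0.154 for the members and 0.137 for all probes.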
